A study of Mus musculus with 4 samples.

Results

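Genes that encode enzymes of extracellular matrix breakdown, and the inhibitors of those enzymes, were read in the prostates of 4 mice. The group held the matrix metalloproteinase genes Mmp2, Mmp3, Mmp7, Mmp9, Mmp11 and Mmp14, the related protease gene Adamts1, and the tissue inhibitor genes Timp1, Timp2 and Timp3. They were chosen by name: every probe that was not a control and whose gene name on the array was one of these was kept. All 10 genes were found among 27962 gene names, with 15 probes on 24 spots of each array, and 14 of the 15 probes passed the filter on dim signals. Only the probe for Mmp3 did not pass. The accession of each of the 15 probes belonged to the same gene in RefSeq.

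Each two-colour array set the RNA of 1 mouse (red dye, Cy5) against a pool from 3 wild-type mice (green dye, Cy3), with no dye swap. The 2 mutant mice were Rb1R654W/F:Trp53F/F:PB-cre4, with 1 Rb1 allele coding for a retinoblastoma protein deficient in E2F binding and the other conditional. The 2 null mice were Rb1F/F:Trp53F/F:PB-Cre4, with both Rb1 alleles conditional. Both genotypes were therefore conditional for Trp53 as well, were untreated, were 60 days old and had a mixed C57BL/6:129/SVJae:FVB background. The labels used here give no age or strain for the pool. PB-Cre4 is Cre recombinase driven by a probasin promoter, which is active in prostate epithelium, so stromal, vascular and immune cells of the same tissue keep their alleles. In the cells where Cre acts, the comparison of the genotypes asks how a retinoblastoma protein that binds E2F poorly differs from loss of the protein. In cells that keep their alleles, it sets 1 R654W and 1 conditional Rb1 allele (mutant mice) against 2 conditional alleles (null mice). Whole tissue holds both kinds of cell.

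Matrix metalloproteinases are zinc-dependent enzymes, made as inactive precursors, that cut collagens, laminins and other matrix proteins as well as growth factors and their receptors. Tissue inhibitors of metalloproteinases bind the active enzymes and block them. Both sides meet at the cell surface, where TIMP2 bound to the membrane enzyme MMP14 holds the precursor of MMP2 for activation. In the prostate the stroma makes much of the MMP2 and TIMP2, whereas MMP7 is a product of epithelium.

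Measurements rest on probes of 60 bases, and 4 of the genes were read by more than 1 of them. The sequences shown are those of all 3 Timp1 probes, 1 probe each of Mmp14, Adamts1 and Mmp9 (the single-spot one), and the only Mmp7 probe. Coordinates are as the array files give them in mouse build mm7. The 3 Timp1 probes lie on chromosome X, on the plus strand. The first is given a span of 250 bases, chrX:19305989-19306238, the second abuts it at chrX:19305929-19305988, and the third lies 1460 bases beyond the first, at chrX:19307699-19307758.
Timp1 A_51_P512379: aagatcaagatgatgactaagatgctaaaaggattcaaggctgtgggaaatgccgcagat
Timp1 A_51_P512384: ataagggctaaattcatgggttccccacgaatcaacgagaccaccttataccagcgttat
Timp1 A_52_P87713: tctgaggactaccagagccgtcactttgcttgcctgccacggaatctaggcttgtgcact

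One of the 2 Mmp14 probes lies at chr14:49307013-49307072 on the plus strand, 1134 bases before the other at chr14:49308207-49308266. One of the 2 Adamts1 probes lies at chr16:85791871-85791930 on the minus strand, 1087 bases from the other at chr16:85790724-85790783. The single-spot Mmp9 probe lies at chr2:164695457-164695516 and the one printed on 10 spots 257 bases further on, at chr2:164695774-164695833, both on the plus strand. The only Mmp7 probe lies at chr9:7695434-7695493 on the plus strand. Whether these positions are exonic, intronic or untranslated was not annotated here.
Mmp14 A_52_P304128: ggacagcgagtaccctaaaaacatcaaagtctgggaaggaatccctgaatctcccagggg
Adamts1 A_52_P213932: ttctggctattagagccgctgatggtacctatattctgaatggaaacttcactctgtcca
Mmp9 A_51_P401797: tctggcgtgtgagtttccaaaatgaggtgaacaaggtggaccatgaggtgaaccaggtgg
Mmp7 A_51_P426096: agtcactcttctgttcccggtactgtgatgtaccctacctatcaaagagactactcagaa

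Null mouse 1 stood apart from the other arrays. Its median background-subtracted red signal was 20.5, against 55.1 to 90.1 in the other 3 mice, and its mouse channel was well above background at 22181 probes, against 25047 to 26165. The prostate secretory genes Pbsn and Tgm4 were bright, with mean log2 intensities over mouse and pool channels of 15.72 and 16.94. The seminal vesicle gene Svs5 stood at 16.78, so these intensities cannot tell prostate alone from prostate with seminal vesicle. Marker genes of other cells moved with null mouse 1. The 8 fibroblast markers, all measured, had a summed level over the pool (log2) of 0.50 to 0.74 in the mutant mice, and of -0.52 and 1.03 in null mice 1 and 2. The 8 macrophage markers, all measured, stood at 0.97 to 1.23 in the mutant mice, with -0.48 for null mouse 1 and 1.63 for null mouse 2. The 5 luminal epithelial markers, all measured, ranged from -0.19 to 0.12 in the mutant mice, with 1.08 for null mouse 1 and -0.16 for null mouse 2. Heat shock genes, 6 of 7 measured, ranged from -0.14 to 0.02 in the mutant mice, with 3.43 for null mouse 1 and 0.40 for null mouse 2. In whole tissue, fewer cells of a type and less RNA per cell cannot be told apart.

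No metalloproteinase or inhibitor probe passed the test in any comparison. Values are log2 ratios of mouse over pool, so 1 is a doubling. The test was limma over all probes past the filter, with a call at a Benjamini-Hochberg adjusted p under 0.05. Mutant minus null called 0 of 14 probes, against 0% of all probes. Mutant minus pool called 0 of 14, against 0.00401% (1 probe), null minus pool called 0 of 14, against 0%, and the mean of all 4 mice minus pool called 0 of 14, against 0.012% (3 probes). At an unadjusted p under 0.05 the members numbered 1, 5, 1 and 5 of 14 in the same order, against 2.18%, 10.6%, 10.2% and 17.6% of all probes. Both counts of 5 include Timp1 A_51_P512379, which passed the filter only through the mouse channel, where it was high. The pool is 1 control sample whose own mice were not read singly, so the tests against it carry no wild-type variation, and these comparisons share the pool and the mice.

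**Figure D1:**
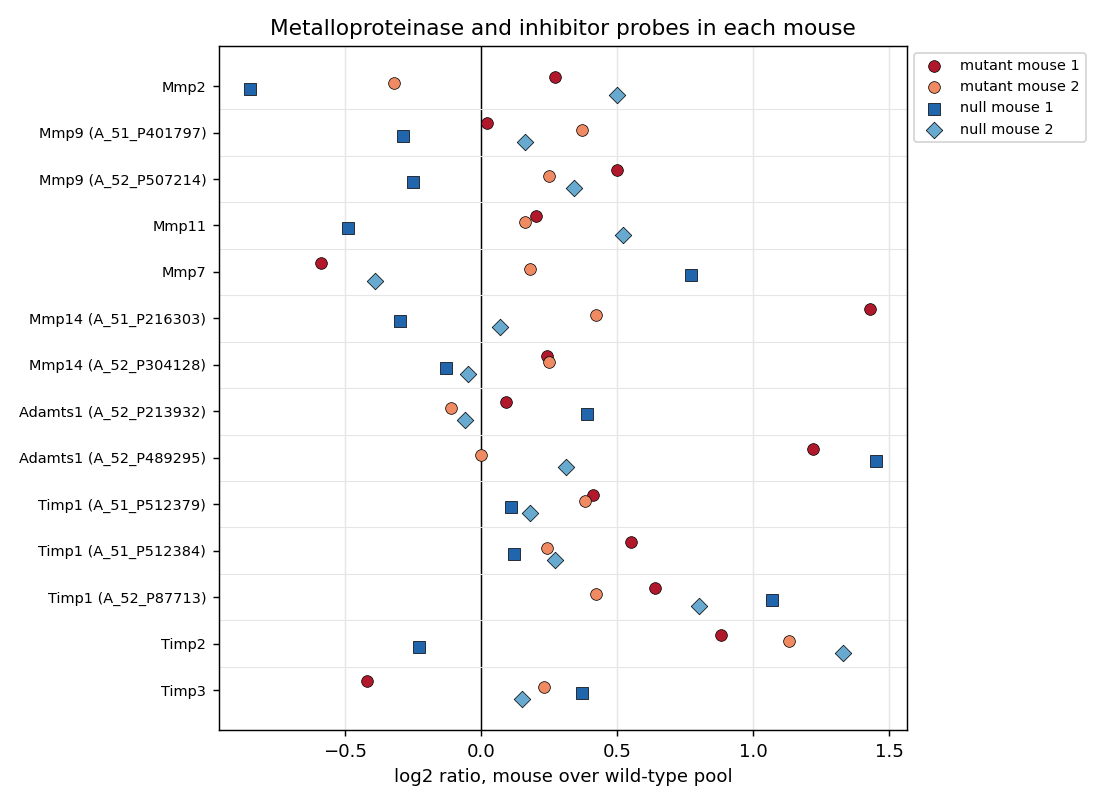
Each point is the log2 ratio of 1 mouse over the wild-type pool (horizontal axis, 0 means equal) at 1 probe (rows, 14 probes past the filter); colours and shapes name the 4 mice. Null mouse 1 (dark blue squares) is the lowest or the highest of the 4 mice in every row, and all points of the 3 Timp1 rows lie to the right of 0.

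The spread between the mice followed one animal. Null mouse 1 was the lowest of the 4 at 9 of the 14 probes and the highest at the other 5, which were those of Mmp7, Adamts1 (both), Timp3 and 1 of Timp1. Over all probes past the filter it was the lowest at 37.6% and the highest at 31.3%. Probes of 1 gene share their target, and this difference was not tested.

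Mmp14 encodes the membrane-anchored metalloproteinase that cuts fibrillar collagen and activates the MMP2 precursor. Both of its probes were higher in both mutant mice than in both null mice, but the dimmer one passed the filter only through the mutant mice. At the probe with the brighter signal (A_51_P216303) the ratios were 1.43 and 0.42 in mutant mice 1 and 2, against -0.30 and 0.07 in null mice 1 and 2. The mutant mean was 0.92 ± 0.71 and the null mean -0.11 ± 0.26 (SD, n = 2 each). Mutant mouse 1 was far above the other 3, and the genotypes did not overlap. Some marker lists also separated the genotypes. All 5 measured prostate secretory markers (of 6) were higher in both mutant mice than in both null mice, against 16.7% of all probes. Their summed level over the pool was 0.83 and 0.36 against -0.04 and -0.20. Of 8 smooth muscle markers, all measured, 5 were lower in both mutant mice, against 13.6% of all probes. Their sums were -0.20 and -0.48 against 0.25 and -0.12. Lower likewise were 4 of 6 heat shock genes, 2 of 4 basal, 1 of 5 luminal and 1 of 8 macrophage markers. Higher were 2 of 6 endothelial and 1 of 4 seminal vesicle markers, while 0 of 8 fibroblast and 0 of 2 neutrophil markers separated. The part of these cells in the Mmp14 values was not tested.

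That Mmp14 difference of 1.04 (SE 0.38, 95% interval 0.06 to 2.01), or 2.05-fold, was the only genotype difference among the members with an unadjusted p under 0.05. The limma unadjusted p was 0.0414 and the adjusted p 0.985. It was 0.53 without mutant mouse 1 and 1.54 without mutant mouse 2. At the second probe (A_52_P304128, shown above) the ratios were 0.24 and 0.25 in the mutant mice and -0.13 and -0.05 in the null mice. These mutant mice lay close together and clear of the null mice, but the signal was near background: the probe was well above it in 3 of 4 mouse readings and 1 of 4 pool readings. It passed the filter only through the mutant mice, the group where it was high, so it lends the difference no separate support.

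The second Mmp14 probe gave a difference of 0.34 (SE 0.17, 95% interval -0.11 to 0.79, limma adjusted p = 0.985). With the scanner software's processed signals, in which background correction, offset and normalisation all differ from those used here, that difference was 1.20 and that of the brighter probe 1.17 (limma adjusted p = 0.971 for each). With the arrays centred on their medians in place of loess, the median difference of all probes was 0.38, and against it the brighter probe stood 1.30 higher and the dimmer one 0.08 lower (-0.08). At the brighter probe the genotypes stayed apart under each of these scalings and without background subtraction. The ratios over the pool of the dimmer probe did so too. With median centring they were 0.22 and 0.06 in the mutant mice and -0.13 and -0.18 in the null mice. The medians of all probes on these arrays were 0.62, 0.56, -0.04 and 0.41, and relative to them the genotypes overlapped at the dimmer probe. In the authors' deposited table both Mmp14 rows were higher in the mutant group, by 2.27-fold and 2.40-fold.

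Genotypes that did not overlap were not rare. Of the 14 probes, 3 were higher in both mutant mice than in both null mice (both Mmp14 probes and Timp1 A_51_P512379), against 16.7% of all probes, and 1 was lower (Timp1 A_52_P87713), against 13.6%. Taken in either direction these were 4 of 14, against 30.4% of all probes. Among them, Mmp14 A_52_P304128 passed the filter only through the mutant mice, the group where it was high. The median mutant minus null difference was 0.18 over the 14 probes and 0.02 over all probes, but 0.04 against 0.01 without null mouse 1. With median centring the order turned, to 0.29 over the 14 probes and 0.38 over all probes.

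**Figure D2:**
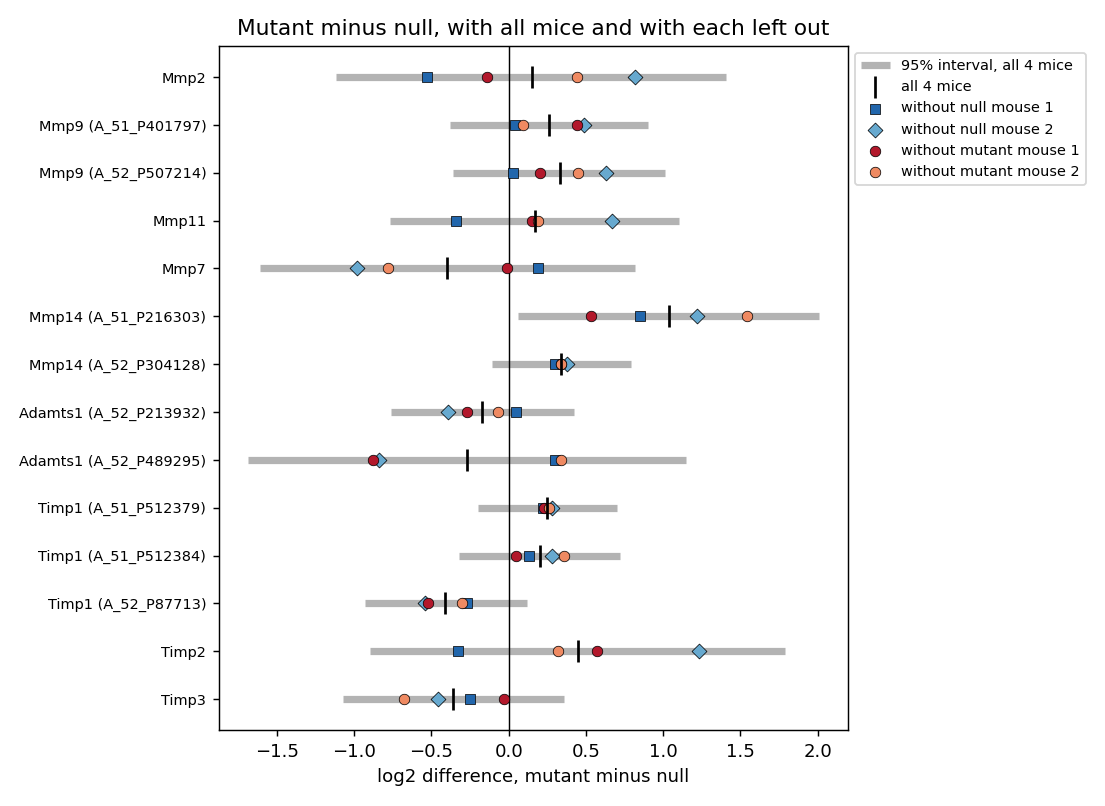
The horizontal axis is the log2 difference mutant minus null at each of 14 probes (rows): black ticks use all 4 mice, grey bars are their 95% intervals from limma, and coloured points leave out 1 mouse each. The interval of the brighter Mmp14 probe (0.06 to 2.01) is the only one that lies clear of 0, and the values for Timp2, Mmp2, Mmp11, Mmp7 and both Adamts1 probes lie on both sides of 0 depending on the mouse left out.

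Mmp2 and Mmp9 encode the gelatinases, secreted enzymes that cut denatured collagen and the type IV collagen of basement membranes. Neither gene separated the genotypes with the normalisation used here. The Mmp2 probe (A_51_P341736, chr8:91446191-91446250, plus strand) read 0.27 and -0.32 in mutant mice 1 and 2, against -0.85 and 0.50 in null mice 1 and 2. The 2 null mice were the lowest and the highest of the 4, so the mutant values lay between them. The difference of 0.15 had a 95% interval of -1.12 to 1.41 (limma adjusted p = 0.991). It was -0.53 without null mouse 1 and 0.82 without null mouse 2.

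The Mmp9 probe printed on 10 spots (A_52_P507214) gives a view of the error within an array. Its spots had means of 0.50 ± 0.11 in mutant mouse 1 (SD over 10 spots), 0.25 ± 0.06 in mutant mouse 2 (9 spots), -0.26 ± 0.08 in null mouse 1 (8 spots) and 0.34 ± 0.08 in null mouse 2 (8 spots). The spots left out carried an outlier flag. Every spot of null mouse 1 was below 0, from -0.38 to -0.17, and every spot of the other 3 mice was above it, from 0.14 to 0.64. This spread is that of spots within an array and leaves out the variation between arrays and between mice.

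**Figure D3:**
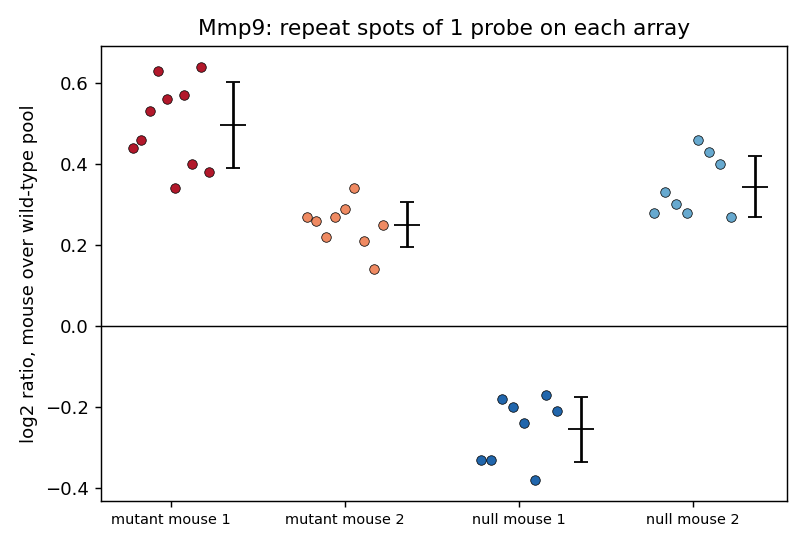
Each point is the log2 ratio of mouse over pool (vertical axis) at 1 spot of the repeated Mmp9 probe, by mouse; the bars beside them are the mean ± SD over the spots of that array. The spots of null mouse 1 lie from -0.38 to -0.17, below 0, and those of null mouse 2 from 0.27 to 0.46, among those of the mutant mice.

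Over mice, this Mmp9 probe stood at 0.37 ± 0.18 in the mutant and 0.04 ± 0.42 in the null group (SD, n = 2 each). The difference of 0.33 (SE 0.27, 95% interval -0.36 to 1.01) did not pass (limma adjusted p = 0.985), and it was 0.03 without null mouse 1. The other Mmp9 probe (A_51_P401797) read 0.02 and 0.37 in the mutant mice and -0.29 and 0.16 in the null mice, where null mouse 1 was not well above background. Its difference of 0.26 (SE 0.25) was 0.04 without null mouse 1. With the processed signals the difference was 0.90 at this probe and 0.81 at the repeated one (limma adjusted p = 0.971 for each). The genotypes then did not overlap at A_51_P401797, with 0.57 and 0.49 in the mutant mice and -0.98 and 0.24 in the null mice. At A_52_P507214 they still overlapped. In the authors' deposited table all 11 Mmp9 rows were higher in the mutant group, by 1.30-fold to 1.88-fold. These rows of the authors' deposited table carry no probe name and are no independent results, since all come from the same 4 mice.

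Mmp9 is a product of neutrophils and macrophages. Of 8 neutrophil markers, S100a9 and Ltf passed the filter and the other 6 (S100a8, Ngp, Camp, Mpo, Elane and Cxcr2) did not. The S100a9 probe, dim at a mean log2 intensity of 6.76, read 0.32 and 0.24 in the mutant mice and -0.10 and 1.92 in null mice 1 and 2. The brighter of 2 Ltf probes past the filter lay below the pool in all 4 mice, from -2.97 to -1.97. The 2 markers thus lay on opposite sides of the pool in 3 of the 4 mice, so they give no reading of neutrophil content. The part of neutrophils and macrophages in the Mmp9 values was not tested.

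Of the 2 stromelysin genes only Mmp11 was measured. Mmp3 encodes a secreted enzyme of broad range that also activates other metalloproteinases. Its probe (A_51_P255699, chr9:7453874-7453933, plus strand) was not well above background in any of the 4 mouse or 4 pool readings, so no fold is given. The authors' deposited table lists Mmp3 once, 1.42-fold higher in the mutant group.

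Mmp11, which encodes stromelysin-3, an enzyme made by stromal cells around epithelial tumours, was measured in all 8 readings of its probe (A_51_P293087, chr10:75578932-75578991, minus strand). The ratios were 0.20 and 0.16 in the mutant mice and -0.49 and 0.52 in null mice 1 and 2. As with Mmp2, the null mice enclosed the mutant mice. The difference of 0.17 had an SE of 0.36 (limma adjusted p = 0.988) and was -0.34 without null mouse 1. The authors' deposited table lists neither Mmp2 nor Mmp11.

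Mmp7 encodes matrilysin, a small secreted metalloproteinase without the hemopexin domain of its relatives. Its per-channel level (log2 intensity after loess and scaling between arrays) was 13.98 and 14.47 in mutant mice 1 and 2, 15.23 and 14.12 in null mice 1 and 2, and 14.46 ± 0.12 in the pool (SD over 4 readings of 1 pool). The corresponding ratios were -0.59, 0.18, 0.77 and -0.39. Each genotype held 1 mouse above the pool and 1 below it.

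The Mmp7 difference, mutant minus null, was -0.40 (95% interval -1.61 to 0.82, limma adjusted p = 0.985), turning to 0.19 without null mouse 1. With median centring it was 0.20, which was -0.18 relative to the median of all probes. The mean of all 4 mice was -0.01 ± 0.62 (SD, n = 4) from the pool. The highest mouse, null mouse 1, was also the one with the highest luminal marker sum. The part of that in the Mmp7 value was not tested.

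Adamts1 encodes a secreted protease with thrombospondin repeats that cuts proteoglycans such as versican and aggrecan. Its 2 probes gave different pictures. The ratios at A_52_P489295 were 1.22 and 0.00 in mutant mice 1 and 2, against 1.45 and 0.31 in null mice 1 and 2. Mutant mouse 1 and null mouse 1 were high and the other 2 low, so the split ran across the genotypes.

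The mean of the 4 mice at that Adamts1 probe was 0.74 ± 0.70 (SD, n = 4), or 1.68-fold over the pool, with an unadjusted p of 0.0428 and a limma adjusted p of 0.270. The second probe (A_52_P213932, shown above) read 0.09 and -0.11 in the mutant mice and 0.39 and -0.06 in the null mice, with a mean of 0.08 ± 0.22 (SD, n = 4). Null mouse 1 was the highest at both. Mutant minus null was -0.27 (SE 0.55) and -0.17 (SE 0.23) at the 2 probes, both with a limma adjusted p above 0.98, and turned to 0.30 and 0.05 without null mouse 1. With median centring the first was 0.26, or -0.12 relative to the median of all probes. In the authors' deposited table both Adamts1 rows were lower in the mutant group, by 1.27-fold and 1.70-fold.

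Among the inhibitors, Timp1 was above the pool at all 3 of its probes in all 4 mice. Of these, A_51_P512379 passed the filter only through the mouse channel, the side where it was high. TIMP1 is a secreted inhibitor of most soluble metalloproteinases and is induced in many injured or inflamed tissues. The probe A_52_P87713 read 0.64 and 0.42 in mutant mice 1 and 2, against 1.07 and 0.80 in null mice 1 and 2. The mutant mice were both lower than the null mice. The mean of all 4 was 0.73 ± 0.27 (SD, n = 4), or 1.66-fold (SE 0.10 on the log2 scale, 95% interval 0.47 to 1.00), with an unadjusted p of 0.000781 and a limma adjusted p of 0.193, the lowest among the members.

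The other 2 Timp1 probes, which abut each other, were dim, and A_51_P512379 was well above background in 3 of 4 pool readings. Since this probe passed the filter only through the mouse channel, it lends the height of Timp1 over the pool no separate support. It read 0.41 and 0.38 in the mutant mice and 0.11 and 0.18 in the null mice. A_51_P512384 read 0.55 and 0.24 in the mutant mice and 0.12 and 0.27 in the null mice. Their means over 4 mice were 0.27 ± 0.15 and 0.30 ± 0.18 (SD, n = 4), with limma adjusted p of 0.245 and 0.256. With processed signals these means were 0.51 and 0.93, against 0.79 at A_52_P87713, so the order of the probes was not kept. All 3 probes that were above 0 in all 4 mice were those of Timp1, against 16.7% of all probes, and no member probe was below 0 in all 4, against 14.9%. All 12 Timp1 ratios were also above 0 without background subtraction, with processed signals and with median centring, but with the last the means of these 2 probes were -0.11 and 0.00 relative to the median of all probes.

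The Timp1 probes disagreed on the order of the genotypes. Mutant minus null was -0.41 (SE 0.20) at A_52_P87713, 0.25 (SE 0.17) at A_51_P512379 and 0.20 (SE 0.20) at A_51_P512384, each with a limma adjusted p of 0.985. With median centring the first was 0.15, or -0.23 relative to the median of all probes. Its ratios over the pool then overlapped between the genotypes, though not relative to the median of each array. Relative to the median of all probes the other 2 turned, to -0.24 and -0.06. At A_51_P512379 the ratios of the genotypes overlapped without background subtraction and met with median centring. They also overlapped with processed signals, where the mutant mice read 0.74 and 0.43 and the null mice 0.53 and 0.34. At A_51_P512384 the genotypes, which overlapped with the normalisation used here, came apart in 2 settings, with the mutant mice higher. Without background subtraction the mutant mice read 0.67 and 0.34 and the null mice 0.13 and 0.32. With processed signals they read 1.46 and 0.85 against 0.62 and 0.78. Of the 3 Timp1 rows in the authors' deposited table, 2 were higher in the mutant group, by 1.15-fold and 1.45-fold, and 1 was lower, by 1.38-fold.

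Timp2 encodes the inhibitor that, bound to MMP14, takes part in the activation of MMP2. Its probe (A_52_P540219, chr11:118410877-118410936, minus strand) read 0.88 and 1.13 in mutant mice 1 and 2, against -0.23 and 1.33 in null mice 1 and 2. The per-channel levels were 12.39, 12.68, 11.35 and 12.88, against 11.55 ± 0.02 in the pool (SD over 4 readings). Thus 3 mice were above the pool and close to each other, and null mouse 1 was below it.

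The mutant mean of Timp2, 1.00 ± 0.18 (SD, n = 2) or 2.00-fold over the pool, had an unadjusted p of 0.0426 and a limma adjusted p of 0.462. The mean of all 4 mice was 0.78 ± 0.69 (SD, n = 4), with a limma adjusted p of 0.253, and was 1.17 without null mouse 1 (the lowest limma adjusted p with any 1 mouse left out was 0.067). Mutant minus null was 0.45 (95% interval -0.90 to 1.79), and turned to -0.33 without null mouse 1. The 3 mice with high Timp2 were the 3 with fibroblast and macrophage marker sums above the pool; the part of those cells in the Timp2 value was not tested.

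Timp3 encodes an inhibitor that binds the matrix and also blocks ADAM and ADAMTS proteases. Its probe (A_51_P463765, chr10:85907162-85907221, plus strand) read -0.42 and 0.23 in mutant mice 1 and 2, against 0.37 and 0.15 in null mice 1 and 2. Mutant mouse 1 was the only one below the pool. Mutant minus null was -0.36 (95% interval -1.07 to 0.36, limma adjusted p = 0.985) and was -0.03 without mutant mouse 1. With median centring it was 0.26, or -0.12 relative to the median of all probes. In the authors' deposited table Timp2 was 1.17-fold higher and Timp3 1.24-fold lower in the mutant group.

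Median centring changed calls against the pool. It moved the median of all probes to 0.37 for all 4 mice minus pool and called 4260 probes (17.1% of all), 4193 of them higher. Among them were 4 of the 14 member probes: Timp1 A_52_P87713 at 1.27, Adamts1 A_52_P489295 at 1.20, Mmp7 at 0.94 and Timp3 at 0.82 (limma adjusted p of 0.0347, 0.0442, 0.0351 and 0.0397). Relative to that median they stood 0.90, 0.83, 0.57 and 0.45 higher.

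Of the wider protease network, no gene was called in any comparison, each read by the brightest of its probes past the filter. Of 17 other matrix metalloproteinase genes, 15 were on the array and 7 passed the filter; the collagenase genes Mmp8 and Mmp13 and the macrophage elastase gene Mmp12 did not. Mmp15, which encodes a membrane-type relative of MMP14, read -0.21 and -0.33 in mutant mice 1 and 2, against -0.70 and -0.34 in null mice 1 and 2. It was below the pool in 4 of 4 mice, with a mean of -0.40 ± 0.21 (SD, n = 4, limma adjusted p = 0.215).

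Mmp17, another membrane-type gene, read -0.37 and -0.54 in the mutant mice and 0.44 and -0.01 in the null mice. Its mutant minus null difference of -0.67 (SE 0.23, limma adjusted p = 0.985) was of opposite sign to that of Mmp14. Mmp24, also of the membrane type, differed by -0.29 (SE 0.21, limma adjusted p = 0.985). The 7 measured genes had a median mutant minus null difference of -0.12, against 0.02 over all probes.

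Of the remaining inhibitors, Timp4 read -0.40 and -0.69 in the mutant mice and -3.37 and 0.12 in null mice 1 and 2, so null mouse 1 alone set its null mean of -1.63. Reck, whose membrane-bound product inhibits MMP14, MMP2 and MMP9, read 0.41 and 0.31 in the mutant mice and -0.06 and 0.68 in the null mice. Neither was called (limma adjusted p of 0.985 and 0.994 for mutant minus null).

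Of 18 other ADAMTS genes, 16 were on the array and 11 passed the filter, with a median difference of 0.13 between the genotypes. Adamts15 was below the pool in 4 of 4 mice, at -0.43 ± 0.14 (SD, n = 4, limma adjusted p = 0.201). Adamts7 also lay below it in 4 of 4 mice, at -0.14 ± 0.14. Adamts3 had a mean of 0.06 ± 0.16, with the mutant mice below the null mice. Of 8 ADAM sheddase genes 7 passed, with a median difference of 0.10.

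The plasminogen activators feed the same cascade, since plasmin activates metalloproteinase precursors. Of 8 genes of this system 5 passed the filter. Plau, which encodes urokinase, read -1.76 and -0.32 in mutant mice 1 and 2, against -1.66 and -1.15 in null mice 1 and 2. It was below the pool in 4 of 4 mice, with mutant mouse 2 nearest to it, at a mean of -1.22 ± 0.66 (SD, n = 4, limma adjusted p = 0.197). Plat, which encodes tissue plasminogen activator, was above it in 4 of 4 mice, at 0.45 ± 0.22 (limma adjusted p = 0.203).

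Markers of seminal vesicle, the neighbouring gland, were far below the pool in 3 mice: 4 of 6 were measured, and their summed level over the pool was -4.59 and -0.40 in mutant mice 1 and 2, against -5.60 and -3.75 in null mice 1 and 2. Mutant mouse 2, nearest to the pool there, was also nearest to it for Plau; the part of that tissue in the Plau values was not tested.

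Furin, the convertase that activates MMP14 and MMP11, read -0.36 and -0.20 in the mutant mice and 0.24 and 0.04 in the null mice, a difference of -0.42 (SE 0.19, limma adjusted p = 0.985). Bsg, whose product induces metalloproteinases in fibroblasts, was below the pool in 4 of 4 mice, with a mean of -0.50 ± 0.56 (limma adjusted p = 0.313). Of 13 genes for matrix substrates 12 passed, with a median difference of -0.02. Lama5, a laminin chain of basement membranes, read -0.86 and -0.51 in the mutant mice and 1.16 and -0.37 in the null mice. Its difference of -1.08 (SE 0.53) was not called (limma adjusted p = 0.985). Eln, which encodes elastin, was above the pool in 4 of 4 mice by 0.17 ± 0.06 (SD, n = 4, limma adjusted p = 0.374).

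**Figure D4:**
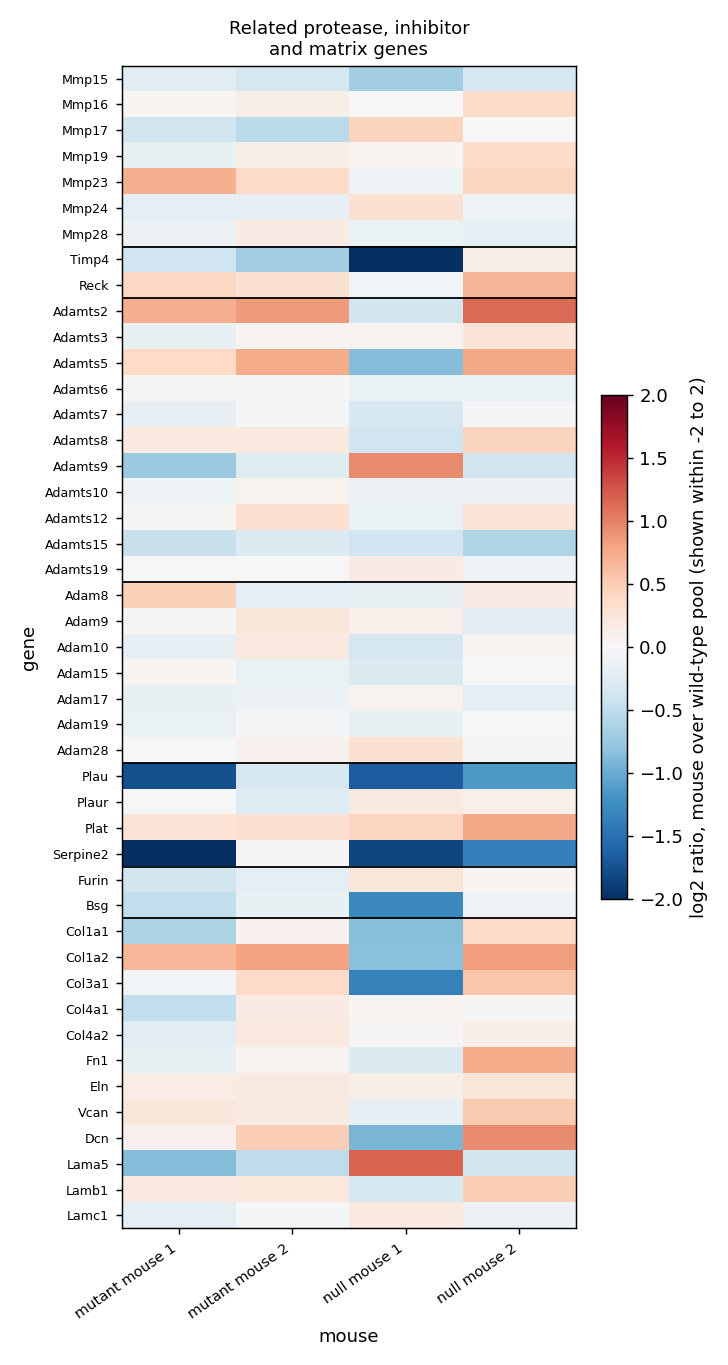
Colours give the log2 ratio of mouse over pool, limited to -2 to 2, for measured genes of the network (rows, 1 probe per gene, black lines part the lists) in the 4 mice (columns). Null mouse 1 has the dark blue Timp4 cell (-3.37, beyond the scale) and the red Lama5 cell (1.16), and Plau is blue in all 4 mice, from -1.76 to -0.32.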

How the data were processed

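Per the file headers, the deposited scanner files hold spot intensity as mean and processed signals beside background medians, and name Agilent Feature Extraction 9.5.1.1; per the submitters' processing notes the version was 8.5. The deposited log10 ratio is that of the red over green processed signals. The authors' deposited table gives each genotype's mean as a linear ratio, without arrays or p-values; how it was normalised is not given in the sources used here.

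Here, signals were corrected with normexp (offset 50) and loess-normalised with limma 3.58.1 (R 4.3.3). Control spots had no weight, outlier-flagged spots were left out, and spots of a probe were averaged. Of 41174 probes, 24916 were kept: those well above background in the mouse channel on both arrays of a genotype, or in the pool on all 4. Ratios were fitted with lmFit and eBayes over all 4 arrays and p-values adjusted over all probes. Each related or marker gene was read by the brightest of its probes past the filter. Of the single genes given with values, Mmp17, Adamts7, Plat and Ltf had 2 such probes each, and the dimmer is not shown. Every member probe is named; of each related list, up to 3 genes of smallest p among those whose genotypes did not overlap or that lay on 1 side of 0. Timp4, Reck and the genes named as not measured fall outside this rule and were chosen after their values were seen. One gene that the rule takes is not reported here. Members and lists were chosen with earlier results of these data known.

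The 4 arrays came from 1 slide and 1 scan with mice of a genotype side by side, so genotype and position on the slide cannot be told apart. With no dye swap, dye bias stays in ratios over the pool. The labels name separate mice, 2 per genotype. An exact permutation of 2 against 2 cannot go below p = 0.333. The number of arrays limits the precision.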

Additional observations from a re-analysis of the deposited data

Results flagged for a closer look

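The dimmer Mmp14 probe (A_52_P304128) was above the pool in both mutant mice and below it in both null mice. It passed the filter on dim signals only through the mutant mice. Its mutant minus null difference was 0.34 on the log2 scale, and limma's test of that difference did not pass (adjusted p = 0.985). With the processed signals null mouse 2 was at 0.03, and without background subtraction at 0.10, so that it no longer lay below the pool.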

How the results depend on the processing

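With 2 mice per genotype, wide intervals limit every genotype difference, and signal near background limits Mmp3, the dimmer Mmp14 probe, Mmp9 A_51_P401797 and Timp1 A_51_P512379. Calls of 0 members were the same under all alternatives run, except that median centring called 4 members in all 4 mice minus pool. Fitting the replicate number as a block called 0 members for mutant minus null; the numbers do not pair the mice (r = 0.00358 between genotypes for replicate 1 minus 2 over 24850 probes). Without null mouse 2, 9 probes of all were called for mutant minus null, 380 for null minus pool and 326 for all 4 mice minus pool, and 36 for the last without null mouse 1; none was a member. With one mouse per genotype left, that mouse is assumed to vary like the other genotype's.

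Directions that turned, on the log2 scale, had these values. Without background subtraction, null minus pool was 0.00 for Mmp9 A_51_P401797 and 0.03 for Mmp14 A_52_P304128. With the processed signals, null minus pool was -0.28 for Mmp11 and -0.14 for Mmp9 A_52_P507214, and all 4 minus pool was -0.03 for Mmp11. With median centring, mutant minus null was 0.20 for Mmp7, 0.26 for Timp3, 0.26 for Adamts1 A_52_P489295 and 0.15 for Timp1 A_52_P87713. Relative to the all-probe median of 0.38 these 4 were -0.18, -0.12, -0.12 and -0.23, the sign they had with loess, while Mmp14 A_52_P304128 (-0.08), Mmp9 A_51_P401797 (-0.10) and Timp1 A_51_P512379 (-0.24) and A_51_P512384 (-0.06) turned. It made mutant minus pool 0.69 for Mmp2, 1.04 for Mmp7 and 0.95 for Timp3, and null minus pool 0.14 for Mmp14 A_51_P216303 and 0.03 for Mmp2, where the medians were 0.60 and 0.14. It made all 4 minus pool 0.36 for Mmp2, 0.94 for Mmp7 and -0.01 for Mmp14 A_52_P304128, where the median was 0.37. Relative to these medians, mutant minus pool also turned for Mmp11 (-0.08), Mmp9 A_51_P401797 (-0.35), Mmp14 A_52_P304128 (-0.46) and Timp1 A_51_P512379 (-0.27) and A_51_P512384 (-0.07). Null minus pool did for Mmp9 A_52_P507214 (-0.05). All 4 minus pool did for Mmp11 (-0.04), Mmp9 A_51_P401797 (-0.26) and A_52_P507214 (-0.02), Timp1 A_51_P512379 (-0.11) and Adamts1 A_52_P213932 (-0.36). There 6 of 14 probes were above the median, against 12 with loess. The cause was not tested.

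Leaving out each mouse in turn also turned directions. Mutant minus null then ranged from -0.53 to 0.82 for Mmp2, -0.34 to 0.67 for Mmp11, -0.98 to 0.19 for Mmp7, -0.33 to 1.23 for Timp2, -0.88 to 0.34 for Adamts1 A_52_P489295 and -0.39 to 0.05 for Adamts1 A_52_P213932. Mutant minus pool ranged from -0.32 to 0.27 for Mmp2, -0.59 to 0.18 for Mmp7, -0.42 to 0.23 for Timp3, 0.00 to 1.22 for Adamts1 A_52_P489295 and -0.11 to 0.09 for Adamts1 A_52_P213932. Null minus pool ranged from -0.85 to 0.50 for Mmp2, -0.49 to 0.52 for Mmp11, -0.39 to 0.77 for Mmp7, -0.30 to 0.07 for Mmp14 A_51_P216303, -0.29 to 0.16 for Mmp9 A_51_P401797, -0.25 to 0.34 for Mmp9 A_52_P507214, -0.23 to 1.33 for Timp2 and -0.06 to 0.39 for Adamts1 A_52_P213932. All 4 minus pool ranged from -0.44 to 0.24 for Mmp2, -0.16 to 0.35 for Mmp11, -0.30 to 0.28 for Mmp7, -0.05 to 0.18 for Mmp9 A_51_P401797, -0.08 to 0.25 for Timp3 and -0.03 to 0.19 for Adamts1 A_52_P213932. The other directions, taken without reference to the median of all probes, stayed the same in every refit run.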
